A study of Homo sapiens with 12 samples.

Results

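The collagen genes were taken as every row of the deposited gene count table whose symbol has the form of a collagen chain, COL, a type number, A and a chain number. This gave 41 genes of 17197 in the table, all of which have a protein-coding gene of that symbol in GENCODE release 29 (GRCh38). A filter on low counts applied to the whole table left 33 of the 41 among the 13171 genes tested. A gene could pass it through a single group in which it was high, so counts over the 33 are descriptions of the tested genes and not of all collagen genes. The 41 were sorted by the structures their chains build: 11 fibrillar, 6 basement membrane network (type IV), 5 beaded filament (type VI), 3 short chain network (types VIII and X), 8 fibril-associated, 3 transmembrane, 2 multiplexin, 1 anchoring fibril (type VII) and 2 others. COL9A1, COL22A1 and COL23A1 were not analysed here.

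RNA was sequenced from AC16, an established human line derived by fusion of adult ventricular cells with transformed fibroblasts, so all groups are models in a single line. All 12 libraries came from cells transfected through the jetPRIME reagent at about 70% confluence in medium without serum, and the 4 groups of 3 differ in the siRNA and in hydrogen peroxide (H2O2), an oxidant. The group siNC (libraries 1 to 3) received a negative control siRNA, siEP300 (4 to 6) an siRNA against EP300, and siNC.H2O2 (7 to 9) and siEP300.H2O2 (10 to 12) the same siRNAs followed 12 h later by H2O2 for 1 h. The labels give the H2O2 dose as 200 mM, and whether that unit is the one meant could not be settled from them. Complete medium followed, and RNA was isolated after 48 h. Serum at 10% is also given for all 12 libraries. Nothing in the labels tells whether libraries of the same group stem from independent cultures. The p-values therefore reflect the spread among these samples alone, and that spread may be technical. Loss of EP300 and effects of its siRNA on other targets cannot be told apart.

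Library totals ran from 16081437 to 19033679 estimated counts. EP300 encodes a lysine acetyltransferase and transcriptional co-activator. It was at 101, 69.0 and 80.1 CPM in siNC, 36.2, 36.8 and 36.7 with EP300 siRNA (siEP300), 59.9, 80.4 and 89.8 with H2O2 (siNC.H2O2) and 30.1, 26.9 and 26.5 with both (siEP300.H2O2). All EP300 siRNA libraries lay below all control siRNA libraries, at 43.9% of the control without H2O2 (log2 fold change -1.19 ± 0.14, adjusted p = 3.6e-06) and 36.3% with it (log2 fold change -1.46 ± 0.14, adjusted p = 5.9e-07). Throughout, levels in CPM are counts per 1000000 of the scaled library total. Log2 fold changes are given ± the standard error from a quasi-likelihood fit in edgeR, with p-values adjusted by the Benjamini-Hochberg method over all 13171 genes. A gene was called, or said to rise or fall, at an adjusted p under 0.05. For the EP300 siRNA libraries, one label field gives MLF1 as the target. MLF1 was at 86.1% of the control without H2O2 (log2 fold change -0.22 ± 0.06, adjusted p = 0.0052) and 82.0% with it (log2 fold change -0.29 ± 0.06, adjusted p = 0.00069).

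Collagens are secreted or membrane-bound proteins in which 3 chains wind into a triple helix, and some types, among them I, IV, V, VI and VIII, combine chains from more than 1 gene. Types I, III and V form the fibrils that carry tension in the wall of the heart, type IV forms the sheet that surrounds each muscle cell and vessel, and type VI links fibrils to that sheet. In the heart the interstitial fibrils are made mainly by fibroblasts, and their build-up is known as fibrosis. Per unit of gene length, as deposited FPKM (fragments per kilobase of gene, scaled to library size), COL1A1 was the most abundant collagen transcript in siNC at 870.3 ± 51.6 (mean ± SD, n = 3). COL5A2 followed at 193 ± 7.72, COL1A2 at 189.8 ± 4.68, COL6A2 at 177 ± 10.6, COL3A1 at 165 ± 5.08 and COL12A1 at 159 ± 19.9. Those 5 lie within a narrow range, and the first 2 of them differ by less than their spread.

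The sequences just upstream of the transcription start are shown for 4 places where collagen genes moved together or apart in the results that follow. COL4A1 and COL4A2 start back to back and point away from each other, and the 126 bases between their RefSeq starts are printed. COL4A5 has COL4A6 behind it in the same arrangement, with 379 bases between the starts. COL6A2 follows COL6A1 on chromosome 21, and COL13A1 had the largest response to H2O2 among the collagen genes with at least 5 CPM. Sequences are from RefSeq (GRCh38.p14), 5′ to 3′ on the plus strand, and end at the base before the RefSeq start of the named gene (for the first, of COL4A2). Capitals mark matches, on either strand, to TATAAA (the TATA box), CCAAT (the CCAAT box), GGGCGG (the GC box) or TGANTCA (the AP-1 element).
COL4A1 to COL4A2, chr13:110307158-110307283: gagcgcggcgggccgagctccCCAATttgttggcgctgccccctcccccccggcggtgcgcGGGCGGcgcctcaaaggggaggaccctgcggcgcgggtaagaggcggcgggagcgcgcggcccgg
COL4A5, chrX:108439588-108439837: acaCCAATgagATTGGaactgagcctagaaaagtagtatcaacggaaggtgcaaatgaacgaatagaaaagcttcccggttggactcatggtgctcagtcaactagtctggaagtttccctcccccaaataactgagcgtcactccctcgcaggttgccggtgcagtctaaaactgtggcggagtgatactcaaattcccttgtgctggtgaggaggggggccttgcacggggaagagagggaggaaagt
COL6A2, chr21:46097862-46098111: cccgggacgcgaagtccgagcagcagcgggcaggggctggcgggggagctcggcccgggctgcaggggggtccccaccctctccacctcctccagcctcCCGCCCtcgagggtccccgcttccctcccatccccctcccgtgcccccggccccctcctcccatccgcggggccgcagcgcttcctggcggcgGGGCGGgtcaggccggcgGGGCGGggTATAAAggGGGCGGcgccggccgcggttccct
COL13A1, chr10:69801656-69801905: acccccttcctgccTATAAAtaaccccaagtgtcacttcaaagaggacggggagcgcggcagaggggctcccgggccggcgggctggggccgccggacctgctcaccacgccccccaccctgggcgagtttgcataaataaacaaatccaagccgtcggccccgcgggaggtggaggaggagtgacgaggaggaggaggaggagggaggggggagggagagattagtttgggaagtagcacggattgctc
The stretch shared by COL4A1 and COL4A2 is 80.2% G or C and holds 1 CCAAT box and 1 GC box, whereas the COL4A5 stretch is 51.2% G or C with 2 CCAAT boxes at its far end. COL6A2 has a TATA box that begins 32 bases before the start, among 4 GC boxes, and in COL13A1 the TATA box begins 236 bases before the start.

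RefSeq upstream windows of 250 bases were at hand for 30 of the 41 collagen genes, 41 windows in all because some genes have more than 1 start. Windows of 1 gene can overlap, and so do those of the head-to-head type IV genes. A match can therefore be counted more than once. TATAAA was in 8 of them (19.5%, against 10.7% of all 35116 windows of that length) and GGGCGG in 23 (56.1%, against 42.6%). CCAAT was in 11 (26.8%, against 32.0%) and TGANTCA in 1 (2.44%, against 6.57%), that of COL10A1. These are counts of letters in a window and say nothing of whether a factor binds there.

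EP300 siRNA changed most of the tested collagen genes, in both directions. Without H2O2, 12 of 33 rose and 12 fell, where 30.1% of all tested genes rose and 31.4% fell, so each direction was near the background. The median log2 fold change was 0.04 for the collagen genes and -0.0042 for all genes, and with upper-quartile scaling or on FPKM the collagen median was negative. With H2O2 present, 7 of 33 rose and 14 fell against the matching control, with backgrounds of 28.4% and 30.6%, and the median was -0.22 against -0.019 for all genes. The background was not matched for level or gene length. In bulk RNA, fewer cells of a kind and less RNA per cell cannot be told apart.

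H2O2 also moved collagen genes both ways, with falls outnumbering rises under EP300 siRNA. With control siRNA 8 of 33 rose (background 17.8%) and 11 fell (background 17.4%), at a median of -0.19 against -0.0081 for all genes. Among all genes called in that comparison 50.5% were higher, and 36.7% with upper-quartile scaling or 33.1% on log2(FPKM + 1), while the collagen split was then 8 to 12 and 8 to 13. The count of falls was 16 without siNC.H2O2 replicate 9, and 7 without siNC.H2O2 replicate 8 or with only the 2 compared groups in the fit. With EP300 siRNA 4 of 33 rose (background 15.9%) and 17 fell (background 15.1%), at a median of -0.51 against -0.00038. The 4 comparisons between groups share libraries, so their values stand side by side here and no overlap between them is counted.

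The interaction compares the EP300 siRNA effect with H2O2 against that without it. It was lower for 8 of 33 collagen genes, 24.2% where the background was 2.21%, and higher for 0 of 33 with a background of 1.12%. At an unadjusted p under 0.05, edgeR gave 0 higher and 12 lower. DESeq2 also called 0 higher and called 9 lower, and 1 was higher when siNC.H2O2 replicate 9 was left out. The 8 were COL1A1, COL4A1, COL4A2, COL4A6, COL6A1, COL6A2, COL6A3 and COL13A1. Of all genes with a called interaction 33.7% were higher, and 58.7% on log2(FPKM + 1), a scale on which the collagen genes were again 0 higher with 7 lower.

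**Figure D1:**
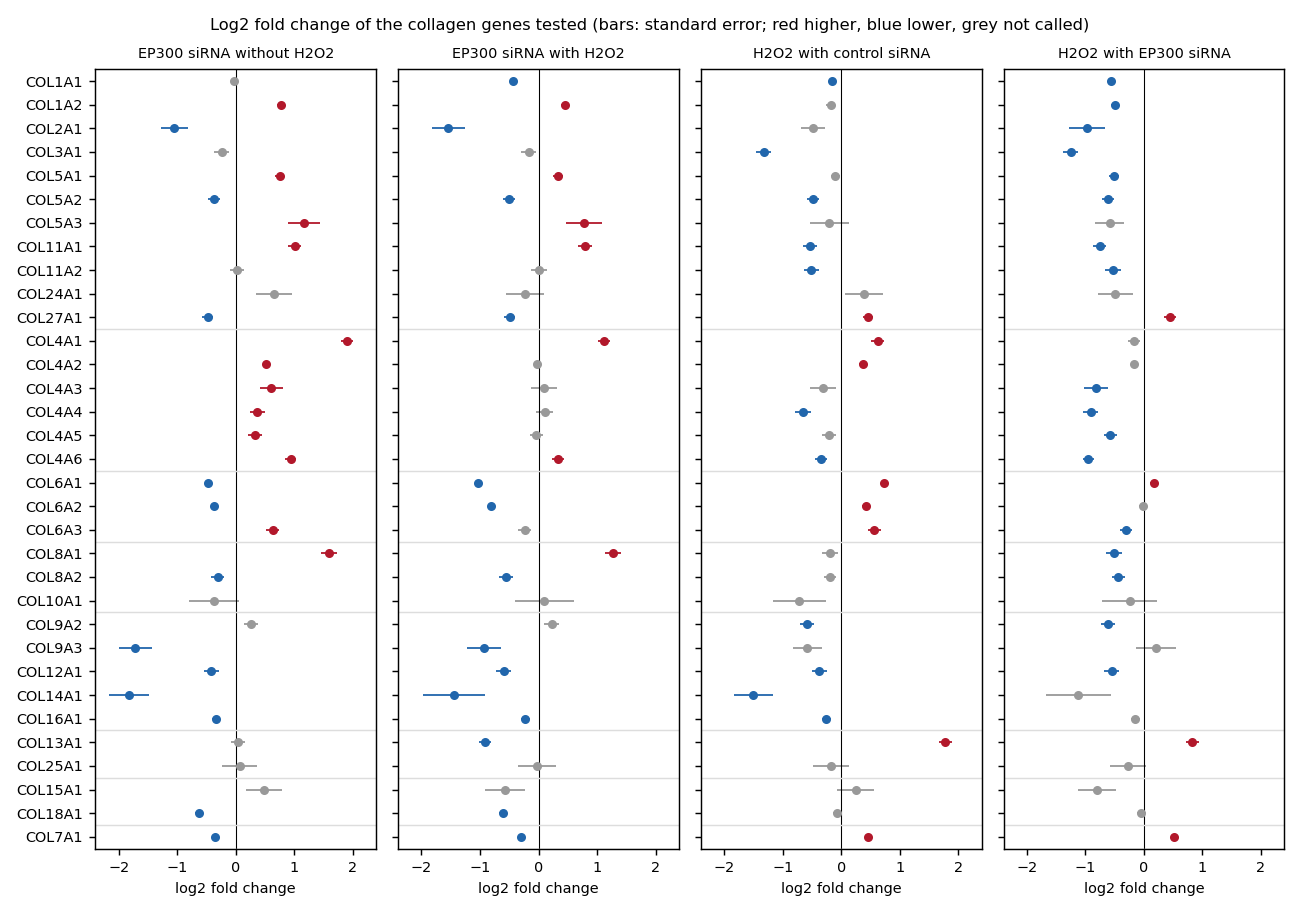
Log2 fold change (x axis) of each tested collagen gene (y axis, grouped by class and separated by grey lines) in the 4 two-group comparisons. Points are edgeR estimates and bars their standard errors, with red for higher, blue for lower and grey for not called. All 6 type IV genes are red in the first panel, and 17 genes are blue in the last.

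Among the fibrillar collagens, the partner chains of types I and V answered EP300 siRNA differently. Of the 11 fibrillar genes, 4 rose and 3 fell with EP300 siRNA without H2O2 (backgrounds 30.1% and 31.4%). With H2O2 4 rose and 4 fell (backgrounds 28.4% and 30.6%). Under control siRNA, H2O2 raised 1 and lowered 5 (backgrounds 17.8% and 17.4%). Under EP300 siRNA it raised 1 and lowered 8 (backgrounds 15.9% and 15.1%). Type I collagen is made of COL1A1 and COL1A2 chains. COL1A2 (chr7:94394561-94431232, plus strand) was at 858, 855 and 894 CPM in siNC, 1463, 1477 and 1513 with EP300 siRNA (siEP300), 705, 714 and 878 with H2O2 (siNC.H2O2) and 1038, 1017 and 1096 with both (siEP300.H2O2). It rose 1.71-fold with EP300 siRNA without H2O2 (log2 fold change 0.77 ± 0.07, adjusted p = 3.6e-07) and 1.37-fold with H2O2 (log2 fold change 0.46 ± 0.07, adjusted p = 7e-05), with no overlap between the groups. COL1A1 (chr17:50183289-50201632, minus strand) was at 4912, 4402 and 4739 CPM in siNC, 4567, 4546 and 4685 with EP300 siRNA (siEP300), 4089, 4149 and 4315 with H2O2 (siNC.H2O2) and 3077, 3218 and 3035 with both (siEP300.H2O2). The siEP300 libraries lay inside the siNC range (log2 fold change -0.03 ± 0.05, adjusted p = 0.68), whereas siEP300.H2O2 lay below every other library, at 74.3% of siNC.H2O2 (log2 fold change -0.43 ± 0.05, adjusted p = 7.1e-06). H2O2 took COL1A1 to 89.3% with control siRNA (log2 fold change -0.16 ± 0.05, adjusted p = 0.027) and to 67.6% with EP300 siRNA (log2 fold change -0.56 ± 0.05, adjusted p = 2.2e-06). The first of these calls was lost when siNC replicate 1 or 3, or siNC.H2O2 replicate 7 or 8, was left out (adjusted p = 0.064 to 0.081) and with only the 2 compared groups in the fit (adjusted p = 0.15). With a trend on gene length removed from each library, COL1A1 was lower with EP300 siRNA without H2O2 as well (log2 fold change -0.13, adjusted p = 0.011). COL1A2 fell with H2O2 under EP300 siRNA (log2 fold change -0.50 ± 0.07, adjusted p = 0.00012), and with control siRNA its log2 fold change was -0.18 (adjusted p = 0.061), and it passed the threshold with upper-quartile scaling, on FPKM, with the length trend removed and without siNC.H2O2 replicate 9.

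In type V collagen, which starts fibrils and sets their width, COL5A1 rose and COL5A2 fell with EP300 siRNA. COL5A1 (chr9:134641774-134844843, plus strand) was at 254, 215 and 239.6 CPM in siNC, 392, 387 and 412 with EP300 siRNA (siEP300), 195, 211 and 255 with H2O2 (siNC.H2O2) and 281, 275 and 275 with both (siEP300.H2O2). It rose 1.68-fold with EP300 siRNA without H2O2 (log2 fold change 0.75 ± 0.08, adjusted p = 2.2e-06) and 1.26-fold with it (log2 fold change 0.33 ± 0.08, adjusted p = 0.0035). COL5A2 (chr2:189031896-189225312, minus strand) was at 1193, 1088 and 1154 CPM in siNC, 877, 859.7 and 919 with EP300 siRNA (siEP300), 685, 771 and 993 with H2O2 (siNC.H2O2) and 614, 531 and 580.2 with both (siEP300.H2O2). It fell to 77.3% (log2 fold change -0.37 ± 0.10, adjusted p = 0.0052) and 70.4% (log2 fold change -0.51 ± 0.10, adjusted p = 0.00059), so these chains moved in opposite directions in both settings. H2O2 lowered COL5A1 under EP300 siRNA (log2 fold change -0.52 ± 0.08, adjusted p = 0.00029), and under control siRNA the value was -0.10 (adjusted p = 0.39, passing without siNC.H2O2 replicate 9). COL11A1 (chr1:102876467-103108872, minus strand), a chain of the related type XI, rose 2.02-fold and 1.73-fold (log2 fold change 1.01 ± 0.11, adjusted p = 1.8e-06, and log2 fold change 0.79 ± 0.12, adjusted p = 3.2e-05). Its levels were 55.6, 49.4 and 52.5 CPM in siNC, 102, 108 and 107 with EP300 siRNA (siEP300), 30.1, 32.8 and 45.4 with H2O2 (siNC.H2O2) and 67.9, 57.7 and 62.3 with both (siEP300.H2O2), with siEP300 highest and siNC.H2O2 lowest. H2O2 lowered it to 68.9% with control siRNA (log2 fold change -0.54 ± 0.12, adjusted p = 0.0022) and 59.2% with EP300 siRNA (log2 fold change -0.76 ± 0.11, adjusted p = 0.00012). The last type V chain, COL5A3, was higher with EP300 siRNA at under 2 CPM (log2 fold change 1.17 ± 0.27, adjusted p = 0.0016 without H2O2).

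COL3A1 encodes the only chain of type III collagen, the extensible fibril that accompanies type I. It lies on chromosome 2 (chr2:188974320-189012746, plus strand), 19149 bases from the end of COL5A2, which is read towards it. COL3A1 was at 816, 798 and 846 CPM in siNC, 681, 669 and 729 with EP300 siRNA (siEP300), 321, 253 and 407 with H2O2 (siNC.H2O2) and 319, 254 and 299.7 with both (siEP300.H2O2). Every H2O2 library lay below every library without H2O2, at 39.9% of the level with control siRNA (log2 fold change -1.33 ± 0.13, adjusted p = 1.4e-06) and 42.0% with EP300 siRNA (log2 fold change -1.25 ± 0.13, adjusted p = 3.9e-06), the deepest H2O2 falls among the collagen genes with at least 5 CPM. EP300 siRNA did not pass the threshold for it in either setting (log2 fold change -0.24 ± 0.12, adjusted p = 0.098, and log2 fold change -0.17 ± 0.12, adjusted p = 0.26). The first of these did pass without siNC.H2O2 replicate 8 or 9, with upper-quartile scaling, with the length trend removed and with only the 2 compared groups in the fit (adjusted p = 0.0021 to 0.046), and the second without siNC.H2O2 replicate 8 (adjusted p = 0.018). COL5A2 fell with H2O2 too, to 71.3% with control siRNA (log2 fold change -0.49 ± 0.10, adjusted p = 0.0018) and 65.0% with EP300 siRNA (log2 fold change -0.62 ± 0.10, adjusted p = 0.00034).

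Other fibrillar genes differed in which agent moved them. COL27A1 (chr9:114155560-114312511, plus strand) was at 26.5, 22.1 and 26.9 CPM in siNC, 18.2, 16.3 and 19.6 with EP300 siRNA (siEP300), 35.7, 32.7 and 34.9 with H2O2 (siNC.H2O2) and 22.6, 24.3 and 26.6 with both (siEP300.H2O2). It fell with EP300 siRNA to 71.6% and 71.1% without and with H2O2 (log2 fold change -0.48 ± 0.09, adjusted p = 0.00045, and log2 fold change -0.49 ± 0.09, adjusted p = 0.00027). With H2O2 it rose 1.37-fold and 1.36-fold under the 2 siRNAs (log2 fold change 0.45 ± 0.09, adjusted p = 0.0012, and log2 fold change 0.44 ± 0.10, adjusted p = 0.0026). COL11A2, a further type XI chain, was at 6.86, 7.08 and 6.89 CPM in siNC, 7.97, 6.51 and 6.70 with EP300 siRNA (siEP300), 5.44, 4.84 and 4.33 with H2O2 (siNC.H2O2) and 4.86, 5.60 and 4.24 with both (siEP300.H2O2). It fell to about the same share of its level with H2O2 under either siRNA, 70.2% and 69.3% (log2 fold change -0.51 ± 0.13, adjusted p = 0.0066, and log2 fold change -0.53 ± 0.13, adjusted p = 0.0061). COL2A1, the main chain of cartilage fibrils, was under 2.5 CPM in every library and lower with EP300 siRNA (log2 fold change -1.05 ± 0.23, adjusted p = 0.00093 without H2O2, and log2 fold change -1.54 ± 0.28, adjusted p = 0.00025 with it). COL24A1 was called in none of the 4 comparisons, with group means from 0.632 to 0.991 CPM.

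All 6 basement membrane chains rose with EP300 siRNA without H2O2 (background 30.1%), and with H2O2 2 of the 6 did, near the background of 28.4%. Under EP300 siRNA, H2O2 lowered 4 of the 6 (background 15.1%). Under control siRNA it raised 2 (background 17.8%) and lowered 2 (background 17.4%). On FPKM, at least 2 of the 6 (COL4A4 and COL4A5) were not called with EP300 siRNA without H2O2. In that comparison the collagen genes called higher were 11 with DESeq2 and 9 on log2(FPKM + 1), in place of 12. In both, COL4A3 or COL5A3, each under 2 CPM, was among those lost. COL4A1 (chr13:110148963-110307233, minus strand) and COL4A2 (chr13:110305812-110513209, plus strand) make the common type IV network in a ratio of 2 chains to 1. COL4A1 was at 193, 163 and 169 CPM in siNC, 670.3, 611 and 676 with EP300 siRNA (siEP300), 225, 258 and 324 with H2O2 (siNC.H2O2) and 590.0, 559.8 and 595 with both (siEP300.H2O2). It was lowest in siNC, and both EP300 siRNA groups lay above both control siRNA groups. EP300 siRNA raised it 3.73-fold without H2O2 (log2 fold change 1.90 ± 0.11, adjusted p = 1.6e-09), the largest rise among the tested collagen genes, and 2.16-fold with H2O2 (log2 fold change 1.11 ± 0.10, adjusted p = 3.4e-07). COL4A2 was at 499, 454 and 485 CPM in siNC, 718, 654 and 696 with EP300 siRNA (siEP300), 574, 616 and 675 with H2O2 (siNC.H2O2) and 604, 615 and 622 with both (siEP300.H2O2). It rose 1.44-fold without H2O2 (log2 fold change 0.52 ± 0.06, adjusted p = 4.5e-06), and with H2O2 the libraries of the 2 siRNAs overlapped (log2 fold change -0.02 ± 0.06, adjusted p = 0.82). H2O2 raised both genes under control siRNA, 1.54-fold for COL4A1 (log2 fold change 0.62 ± 0.10, adjusted p = 0.00032) and 1.30-fold for COL4A2 (log2 fold change 0.37 ± 0.06, adjusted p = 0.00033). Under EP300 siRNA the log2 fold changes were -0.17 (adjusted p = 0.23) and -0.17 (adjusted p = 0.054), and the first passed with only the 2 compared groups in the fit (adjusted p = 0.013). The second passed in several alternatives, among them DESeq2 (adjusted p = 0.0475) and leaving out siNC replicate 1 or 2, siEP300 replicate 5, or siNC.H2O2 replicate 7 or 9. The spans of the 2 genes overlap in GENCODE, where COL4A2 transcripts begin inside COL4A1, but their exons share no base.

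The other type IV chains are read from 2 further head-to-head pairs. COL4A5 (chrX:108439844-108697545, plus strand) was at 163, 139 and 141 CPM in siNC, 181, 177 and 197 with EP300 siRNA (siEP300), 104, 120.4 and 158 with H2O2 (siNC.H2O2) and 134, 119.8 and 119 with both (siEP300.H2O2). COL4A6 (chrX:108155607-108439497, minus strand) was at 21.5, 19.9 and 21.0 CPM in siNC, 41.1, 38.0 and 40.7 with EP300 siRNA (siEP300), 14.2, 15.2 and 19.5 with H2O2 (siNC.H2O2) and 22.5, 19.6 and 19.8 with both (siEP300.H2O2). Without H2O2, EP300 siRNA raised COL4A6 1.92-fold (log2 fold change 0.94 ± 0.10, adjusted p = 9.3e-07) and COL4A5 1.25-fold (log2 fold change 0.33 ± 0.12, adjusted p = 0.023). The COL4A5 call was lost without siNC replicate 2 or 3 or siEP300 replicate 6 (adjusted p = 0.078 to 0.082) and on FPKM (adjusted p = 0.087). With H2O2, COL4A6 was 1.26-fold higher (log2 fold change 0.34 ± 0.10, adjusted p = 0.011), a call lost without siNC.H2O2 replicate 7 or siEP300.H2O2 replicate 10, and the COL4A5 log2 fold change was -0.04 (adjusted p = 0.81). H2O2 under EP300 siRNA lowered both, to 51.7% (log2 fold change -0.95 ± 0.10, adjusted p = 4.7e-06) and 67.1% (log2 fold change -0.58 ± 0.12, adjusted p = 0.0017). Under control siRNA COL4A6 fell to 78.4% (log2 fold change -0.35 ± 0.10, adjusted p = 0.016), a call lost without siNC.H2O2 replicate 7 or 8 or with only the 2 compared groups in the fit, and COL4A5 had a log2 fold change of -0.21 (adjusted p = 0.17, and 0.0032 without siNC.H2O2 replicate 9), which also passed with the length trend removed and on log2(FPKM + 0.1).

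COL4A3 (chr2:227164565-227314792, plus strand) and COL4A4 (chr2:227002711-227164453, minus strand), the chains known from the kidney filter, have 418 bases between their RefSeq starts and were the least abundant of the class. COL4A4 was at 10.6, 8.38 and 9.27 CPM in siNC, 12.3, 11.9 and 12.3 with EP300 siRNA (siEP300), 5.22, 5.66 and 7.10 with H2O2 (siNC.H2O2) and 7.72, 5.83 and 5.84 with both (siEP300.H2O2). It rose 1.29-fold with EP300 siRNA without H2O2 (log2 fold change 0.37 ± 0.13, adjusted p = 0.019), a call lost without siNC replicate 2 or 3 (adjusted p = 0.083 and 0.054), with the length trend removed (adjusted p = 0.14) and on FPKM (adjusted p = 0.064 with 1 added before the log and 0.12 with 0.1). H2O2 lowered it to 63.7% with control siRNA (log2 fold change -0.65 ± 0.14, adjusted p = 0.00202) and 53.2% with EP300 siRNA (log2 fold change -0.91 ± 0.13, adjusted p = 0.00013). COL4A3, at group means of 0.902 to 1.71 CPM, rose 1.52-fold with EP300 siRNA without H2O2 (log2 fold change 0.61 ± 0.19, adjusted p = 0.016) and fell to 56.7% with H2O2 under EP300 siRNA (log2 fold change -0.82 ± 0.20, adjusted p = 0.0066).

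All 3 tested type VI genes rose with H2O2 under control siRNA (background 17.8%), and the interaction was called lower for all 3 (background 2.21%). Type VI collagen is built from COL6A1, COL6A2 and a further chain, usually COL6A3, and forms beaded filaments around cells. COL6A1 (chr21:45981737-46005050, plus strand) and COL6A2 (chr21:46098097-46132849, plus strand) are neighbours with 93046 bases between them. COL6A1 was at 475, 483 and 496 CPM in siNC, 364, 332 and 351 with EP300 siRNA (siEP300), 783, 772 and 854 with H2O2 (siNC.H2O2) and 376, 389 and 411 with both (siEP300.H2O2). The siNC.H2O2 libraries stood above all others, 1.66-fold over siNC (log2 fold change 0.73 ± 0.06, adjusted p = 2e-07), whereas under EP300 siRNA H2O2 raised it 1.12-fold (log2 fold change 0.17 ± 0.06, adjusted p = 0.037). That smaller rise was not called without siNC replicate 3, siEP300 replicate 5 or 6, or siEP300.H2O2 replicate 11 or 12, nor on FPKM or with upper-quartile scaling (adjusted p = 0.08). EP300 siRNA lowered COL6A1 to 72.0% without H2O2 (log2 fold change -0.47 ± 0.06, adjusted p = 4.6e-06) and to 48.8% with it (log2 fold change -1.04 ± 0.06, adjusted p = 1.5e-09).

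COL6A2 was at 490.1, 559 and 529 CPM in siNC, 413, 401 and 408 with EP300 siRNA (siEP300), 696, 695 and 716 with H2O2 (siNC.H2O2) and 373, 404 and 429.7 with both (siEP300.H2O2). It rose 1.33-fold with H2O2 under control siRNA (log2 fold change 0.42 ± 0.06, adjusted p = 9.1e-05), and under EP300 siRNA the libraries with and without H2O2 overlapped (log2 fold change -0.02 ± 0.06, adjusted p = 0.84). EP300 siRNA lowered it to 77.5% (log2 fold change -0.37 ± 0.06, adjusted p = 9.4e-05) and, with H2O2, to 57.3% (log2 fold change -0.80 ± 0.06, adjusted p = 3.7e-08). COL6A3 (chr2:237324003-237414375, minus strand) was at 163, 119 and 139 CPM in siNC, 223, 215 and 216 with EP300 siRNA (siEP300), 187, 196 and 241 with H2O2 (siNC.H2O2) and 185, 159.9 and 185 with both (siEP300.H2O2). In contrast to the other chains it rose with EP300 siRNA without H2O2, 1.55-fold (log2 fold change 0.63 ± 0.11, adjusted p = 0.00012). With H2O2 the log2 fold change was -0.24 (adjusted p = 0.064, and under 0.05 without siNC replicate 1 or 2 or siNC.H2O2 replicate 7, with upper-quartile scaling and with the length trend removed). H2O2 raised COL6A3 1.48-fold with control siRNA (log2 fold change 0.57 ± 0.11, adjusted p = 0.00081) and lowered it to 81.1% with EP300 siRNA (log2 fold change -0.30 ± 0.11, adjusted p = 0.0404). The latter call was lost on leaving out any 1 of 7 libraries, siNC replicate 3, siEP300 replicate 4, 5 or 6, siNC.H2O2 replicate 8, or siEP300.H2O2 replicate 11 or 12 (adjusted p = 0.051 to 0.16).

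**Figure D2:**
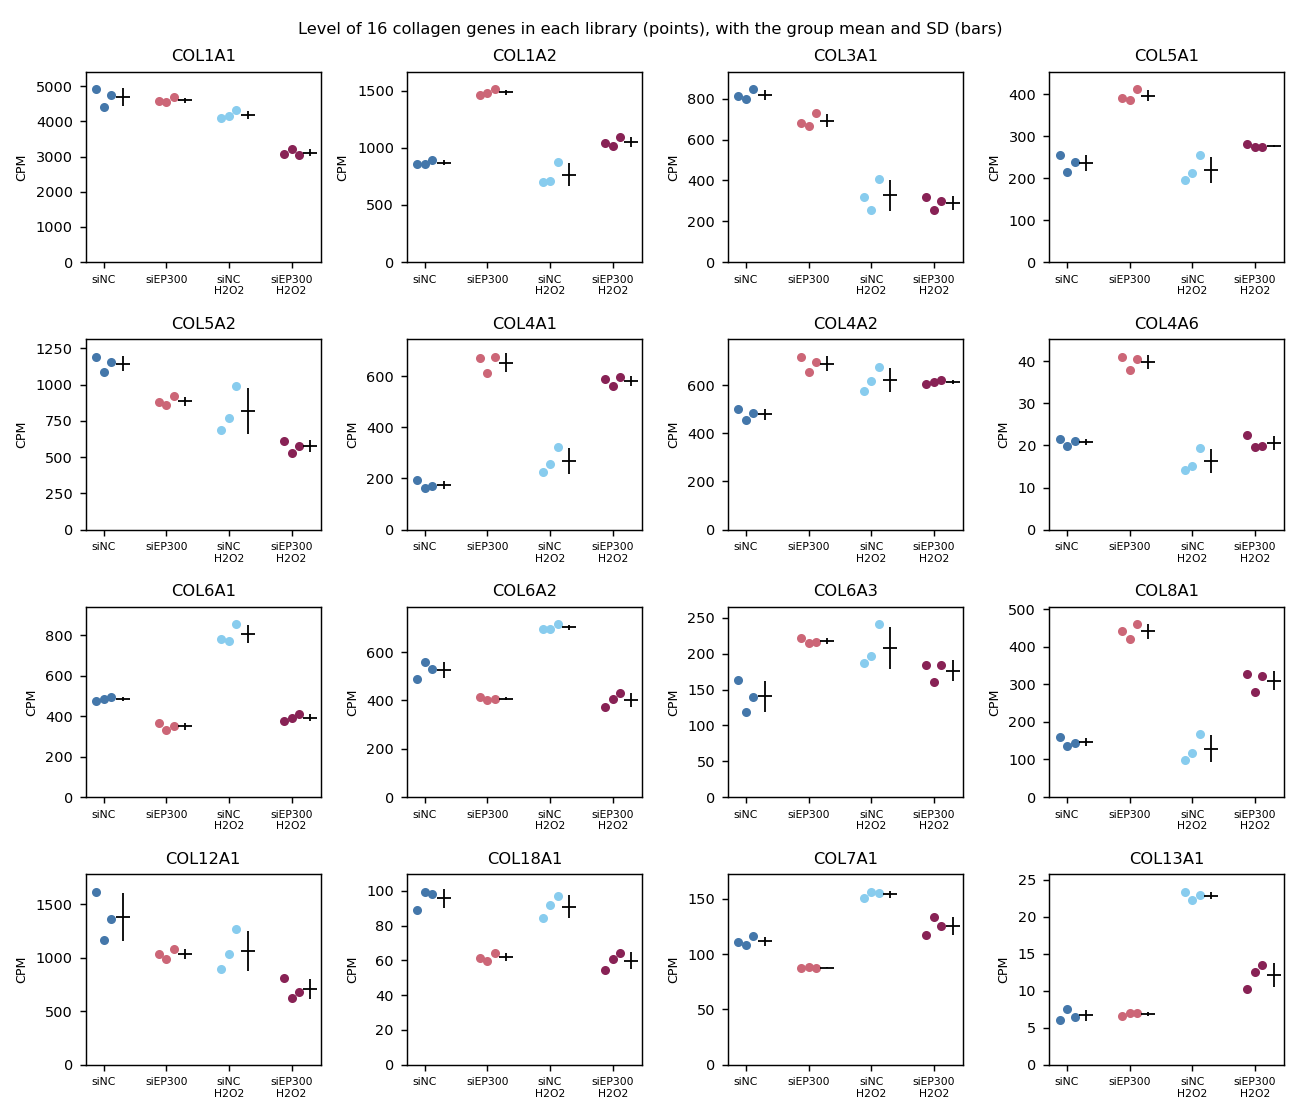
Level in CPM (y axis, starting at 0) of 16 collagen genes in each of the 12 libraries, with points for libraries and a bar for each group's mean and SD. The siNC.H2O2 libraries of COL6A1 and COL13A1 stand above all others, and both H2O2 groups of COL3A1 lie below both groups without it.

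The short chain network collagens of type VIII, found in vessel walls and heart, moved in opposite directions with EP300 siRNA. COL8A1 (chr3:99638475-99799226, plus strand) was at 159, 137 and 143 CPM in siNC, 443, 421 and 460.1 with EP300 siRNA (siEP300), 99.1, 117 and 168 with H2O2 (siNC.H2O2) and 328, 280.4 and 323 with both (siEP300.H2O2). It rose 3.02-fold without H2O2 (log2 fold change 1.59 ± 0.14, adjusted p = 1.5e-07) and 2.42-fold with it (log2 fold change 1.27 ± 0.14, adjusted p = 1.6e-06), and no control siRNA library reached the lowest EP300 siRNA library. COL8A2, its partner chain, was at 19.9, 21.1 and 22.8 CPM in siNC, 17.5, 14.8 and 19.2 with EP300 siRNA (siEP300), 17.7, 18.0 and 20.2 with H2O2 (siNC.H2O2) and 14.0, 10.8 and 13.2 with both (siEP300.H2O2). It fell to 80.7% (log2 fold change -0.31 ± 0.11, adjusted p = 0.02), a call lost without siNC replicate 3 or siEP300 replicate 5 (adjusted p = 0.086 and 0.115), and with H2O2 to 68.0% (log2 fold change -0.56 ± 0.11, adjusted p = 0.00058). H2O2 lowered both under EP300 siRNA (log2 fold change -0.51 ± 0.13, adjusted p = 0.0094 for COL8A1, and log2 fold change -0.44 ± 0.11, adjusted p = 0.0081 for COL8A2). Under control siRNA neither was called (log2 fold change -0.19 for both, adjusted p = 0.303 for COL8A1 and 0.17 for COL8A2), and COL8A1 was called lower without siNC.H2O2 replicate 9 (log2 fold change -0.44, adjusted p = 0.0018). COL10A1, the collagen of growth plate cartilage, was under 1.2 CPM and called in none of these comparisons.

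Of the 5 tested fibril-associated collagens, which sit on the surface of fibrils, 4 fell with EP300 siRNA without H2O2 (background 31.4%) and 4 with it (background 30.6%), and the fifth, COL9A2, was called in neither. H2O2 lowered 4 of the 5 under control siRNA (background 17.4%) and 2 under EP300 siRNA (background 15.1%). COL12A1 (chr6:75084326-75206051, minus strand), the most abundant of them, was at 1620.1, 1166 and 1365 CPM in siNC, 1032, 987 and 1083 with EP300 siRNA (siEP300), 898, 1037 and 1268 with H2O2 (siNC.H2O2) and 816, 627 and 679 with both (siEP300.H2O2). It fell to 74.7% (log2 fold change -0.42 ± 0.13, adjusted p = 0.0104) and to 66.2% with H2O2 (log2 fold change -0.59 ± 0.13, adjusted p = 0.00104). With H2O2 under EP300 siRNA it fell to 68.4% (log2 fold change -0.55 ± 0.13, adjusted p = 0.0048), and under control siRNA the groups overlapped (log2 fold change -0.37 ± 0.13, adjusted p = 0.034) and the call was lost without siNC replicate 1 or 3 or siNC.H2O2 replicate 7 or 8, or with only the 2 compared groups in the fit (adjusted p = 0.07 to 0.125). COL16A1 was at 27.9, 31.9 and 30.9 CPM in siNC, 24.5, 23.1 and 24.2 with EP300 siRNA (siEP300), 27.3, 23.6 and 24.8 with H2O2 (siNC.H2O2) and 20.3, 22.6 and 22.0 with both (siEP300.H2O2). It fell with EP300 siRNA to 79.2% (log2 fold change -0.34 ± 0.08, adjusted p = 0.0014) and, with H2O2, 85.6% (log2 fold change -0.22 ± 0.08, adjusted p = 0.022), a call lost without siNC.H2O2 replicate 7 or siEP300.H2O2 replicate 10 or with only the 2 compared groups in the fit. With H2O2 under control siRNA it was at 83.6% (log2 fold change -0.26 ± 0.08, adjusted p = 0.016), a call lost without siNC replicate 2 or siNC.H2O2 replicate 8, with only the 2 compared groups in the fit and on FPKM, and under EP300 siRNA its log2 fold change was -0.15 (adjusted p = 0.17). COL14A1 and COL9A3 fell in both as well, from siNC means of 1.19 ± 0.111 and 3.35 ± 0.443 CPM (SD, n = 3), COL14A1 to 28.2% (log2 fold change -1.83 ± 0.35, adjusted p = 0.00036) and COL9A3 to 30.4% (log2 fold change -1.72 ± 0.28, adjusted p = 9.8e-05) without H2O2. With H2O2, COL14A1 had 8, 5 and 9 counts in siNC.H2O2, a group mean of 0.411 CPM, and 1, 2 and 5 counts in siEP300.H2O2. COL9A3 had 31, 24 and 64, and 23, 17 and 23. Without siNC.H2O2 replicate 9 or siEP300.H2O2 replicate 11, 12 collagen genes were lower with EP300 siRNA under H2O2, in place of 14. Those losses were among genes not given in full, so the call of COL14A1, COL9A3 or both was then lost. COL9A2, at 6.60, 7.91 and 7.26 CPM in siNC, 8.24, 9.40 and 8.45 with EP300 siRNA (siEP300), 4.63, 4.71 and 5.15 with H2O2 (siNC.H2O2) and 5.02, 6.51 and 5.46 with both (siEP300.H2O2), was lowered by H2O2 instead, to 66.6% and 65.1% under the 2 siRNAs (log2 fold change -0.59 ± 0.12, adjusted p = 0.0018, and log2 fold change -0.62 ± 0.12, adjusted p = 0.0011). Its EP300 siRNA value without H2O2 was 0.26 (adjusted p = 0.057), and it passed without siNC replicate 2 or siEP300.H2O2 replicate 10 or 11 and with the length trend removed.

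COL13A1, a transmembrane collagen known from the junctions between nerve and muscle, had the largest rise with H2O2 among the tested collagen genes. The gene (chr10:69801867-69964275, plus strand) was at 5.96, 7.50 and 6.46 CPM in siNC, 6.55, 7.02 and 6.92 with EP300 siRNA (siEP300), 23.4, 22.3 and 22.9 with H2O2 (siNC.H2O2) and 10.3, 12.6 and 13.4 with both (siEP300.H2O2). It rose 3.44-fold with H2O2 under control siRNA (log2 fold change 1.78 ± 0.11, adjusted p = 9.6e-09) and 1.77-fold under EP300 siRNA (log2 fold change 0.82 ± 0.11, adjusted p = 6.7e-05). Without H2O2 the siRNAs did not differ beyond their spread (log2 fold change 0.04 ± 0.12, adjusted p = 0.79), and with H2O2 the EP300 siRNA libraries were at 52.9% of the control (log2 fold change -0.92 ± 0.10, adjusted p = 1.5e-06). COL25A1, another transmembrane type, was under 1 CPM and called in no comparison.

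COL18A1, the multiplexin whose cleaved end is endostatin, fell with EP300 siRNA in both settings. COL18A1 (chr21:45405137-45513720, plus strand) was at 89.2, 99.6 and 98.2 CPM in siNC, 61.4, 59.7 and 64.3 with EP300 siRNA (siEP300), 84.2, 92.0 and 96.9 with H2O2 (siNC.H2O2) and 54.4, 60.8 and 64.4 with both (siEP300.H2O2). EP300 siRNA lowered it to 64.6% (log2 fold change -0.63 ± 0.07, adjusted p = 3.2e-06) and 65.8% (log2 fold change -0.60 ± 0.07, adjusted p = 5.5e-06), and H2O2 was not called for it under either siRNA (log2 fold change -0.07 ± 0.07, adjusted p = 0.47, and log2 fold change -0.05 ± 0.07, adjusted p = 0.67). Of its annotated exonic bases 16.4% also lie in exons of SLC19A1 on the opposite strand, and with the strand setting of the counting unknown, reads there cannot be assigned to one of them with certainty. COL15A1, the other multiplexin, had group means of 0.671 to 1.18 CPM and was called in none.

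COL7A1 (chr3:48564073-48595267, minus strand), the anchoring fibril of skin and other epithelia, moved in opposite directions with the 2 agents. It was at 111, 108 and 116 CPM in siNC, 87.6, 88.5 and 87.6 with EP300 siRNA (siEP300), 151, 157 and 156 with H2O2 (siNC.H2O2) and 118, 134 and 125 with both (siEP300.H2O2). It fell with EP300 siRNA to 78.6% (log2 fold change -0.35 ± 0.06, adjusted p = 7.6e-05) and 81.4% (log2 fold change -0.30 ± 0.05, adjusted p = 0.00027) and rose with H2O2 1.38-fold (log2 fold change 0.47 ± 0.05, adjusted p = 1.3e-05) and 1.43-fold (log2 fold change 0.51 ± 0.06, adjusted p = 8e-06). The remaining 8 collagen genes did not pass the filter. COL17A1, a transmembrane type, had at most 17 counts in a library and group means of 0.122 CPM in siNC and 0.645 in siNC.H2O2. The highest count in any library was 5 for COL6A6, 4 for COL21A1, 3 for COL28A1 and 1 for each of COL6A5, COL19A1, COL20A1 and COL26A1.

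The 8 genes with a called interaction differed in how their EP300 siRNA effect changed with H2O2. For COL4A1 the rise was smaller (log2 interaction -0.79 ± 0.15, adjusted p = 0.0087), and for COL4A2 and COL6A3 a rise without H2O2 was no longer called with it (log2 interaction -0.54 ± 0.09, adjusted p = 0.0039, and log2 interaction -0.87 ± 0.15, adjusted p = 0.0057). COL6A1 and COL6A2 fell further with H2O2 (log2 interaction -0.56 ± 0.08, adjusted p = 0.0015, and log2 interaction -0.44 ± 0.09, adjusted p = 0.012). For COL1A1 and COL13A1 no change was called without H2O2 and a fall was called with it (log2 interaction -0.40 ± 0.08, adjusted p = 0.0093, and log2 interaction -0.96 ± 0.15, adjusted p = 0.0035). COL4A6 had a smaller rise (log2 interaction -0.60 ± 0.14, adjusted p = 0.033). Its interaction was lost on leaving out any 1 of 9 libraries, siNC replicate 2 or 3, siEP300 replicate 4, 5 or 6, siNC.H2O2 replicate 8 or 9, or siEP300.H2O2 replicate 11 or 12 (adjusted p = 0.052 to 0.091), and on FPKM. For COL5A1 and COL1A2 the interaction did not pass (log2 -0.42, adjusted p = 0.069, and log2 -0.32, adjusted p = 0.11), and both passed without siNC.H2O2 replicate 7 or with the length trend removed. COL5A1 passed as well with DESeq2 (adjusted p = 0.03) and without siNC replicate 1, and COL4A5 passed without siNC.H2O2 replicate 7.

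**Figure D3:**
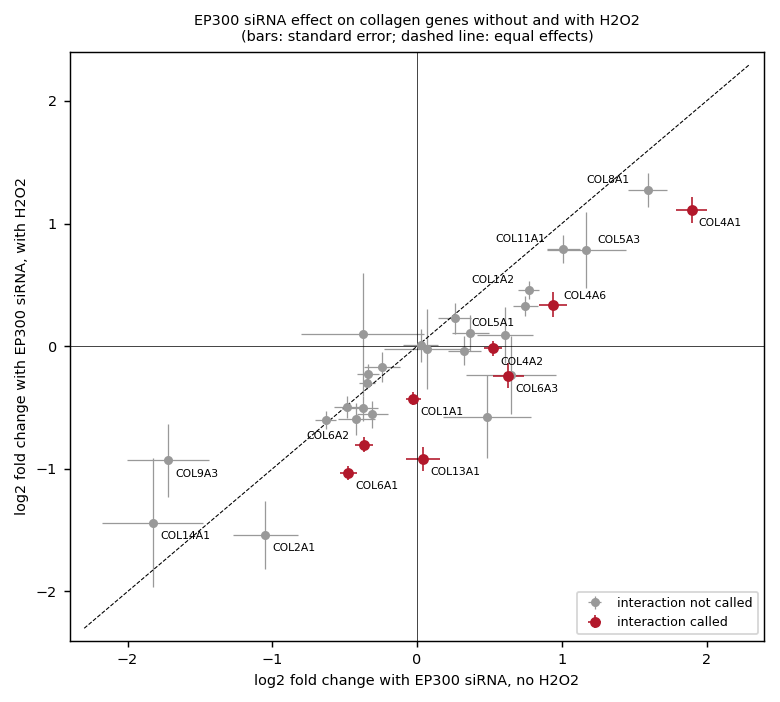
Log2 fold change with EP300 siRNA without H2O2 (x axis) and with H2O2 (y axis) for the 33 tested collagen genes, with standard errors as bars. The comparisons share no library. The 8 genes with a called interaction are red, and all 8 lie below the dashed line of equal effects.

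For types that combine chains of several genes, the deposited FPKM of those chains were set against each other within each library. The ratio of COL1A1 to COL1A2 was 4.87, 4.38 and 4.51 in siNC, 2.66, 2.62 and 2.63 with EP300 siRNA (siEP300), 4.94, 4.94 and 4.18 with H2O2 (siNC.H2O2) and 2.52, 2.69 and 2.35 with both (siEP300.H2O2). Both EP300 siRNA groups lay below both control groups, and the H2O2 groups overlapped those without it. COL4A1 to COL4A2 went the other way, at 0.382, 0.353 and 0.343 in siNC, 0.919, 0.920 and 0.956 with EP300 siRNA (siEP300), 0.387, 0.411 and 0.473 with H2O2 (siNC.H2O2) and 0.962, 0.896 and 0.942 with both (siEP300.H2O2). In EP300 siRNA libraries the chains were at nearly equal levels, whereas in control libraries COL4A1 was well under COL4A2. The ratio of COL5A1 to COL5A2 was 0.164, 0.148 and 0.158 in siNC, 0.341, 0.344 and 0.341 with EP300 siRNA (siEP300), 0.215, 0.208 and 0.196 with H2O2 (siNC.H2O2) and 0.350, 0.394 and 0.360 with both (siEP300.H2O2), and again the siRNAs separated completely.

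COL8A1 to COL8A2 had a ratio of 6.70, 5.36 and 5.28 in siNC, 21.4, 23.3 and 20.1 with EP300 siRNA (siEP300), 4.76, 5.49 and 6.97 with H2O2 (siNC.H2O2) and 19.8, 21.7 and 20.7 with both (siEP300.H2O2), with a gap between the siRNAs far wider than the spread of any group. For COL6A3 to COL6A1 it was 0.150, 0.111 and 0.125 in siNC, 0.269, 0.285 and 0.270 with EP300 siRNA (siEP300), 0.107, 0.113 and 0.124 with H2O2 (siNC.H2O2) and 0.216, 0.183 and 0.199 with both (siEP300.H2O2), higher with EP300 siRNA in both settings. For COL4A5 to COL4A6 it was 7.63, 7.19 and 6.84 in siNC, 4.55, 4.71 and 4.92 with EP300 siRNA (siEP300), 7.61, 8.28 and 8.40 with H2O2 (siNC.H2O2) and 5.97, 6.31 and 6.18 with both (siEP300.H2O2), lower with EP300 siRNA in both. COL6A1 to COL6A2 moved least with EP300 siRNA, at 0.770, 0.688 and 0.745 in siNC, 0.698, 0.655 and 0.680 with EP300 siRNA (siEP300), 0.897, 0.884 and 0.949 with H2O2 (siNC.H2O2) and 0.797, 0.764 and 0.758 with both (siEP300.H2O2), and its siRNA groups overlapped without H2O2. H2O2 raised this ratio, and that of COL5A1 to COL5A2, without overlap under both siRNAs. Each of the 7 ratios except COL6A1 to COL6A2 separated the siRNAs without overlap both with and without H2O2. The exact permutation test on 3 against 3 libraries, two-sided, cannot go below p = 0.10, which each of these reached (0.145 after Benjamini-Hochberg adjustment over 32 tests), so by itself it cannot pass 0.05. Ratios of other gene pairs were not taken, so the count of separated ratios has no background beside it. Without H2O2, EP300 siRNA raised 30.1% and lowered 31.4% of all tested genes, so pairs of other genes may separate too.

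**Figure D4:**
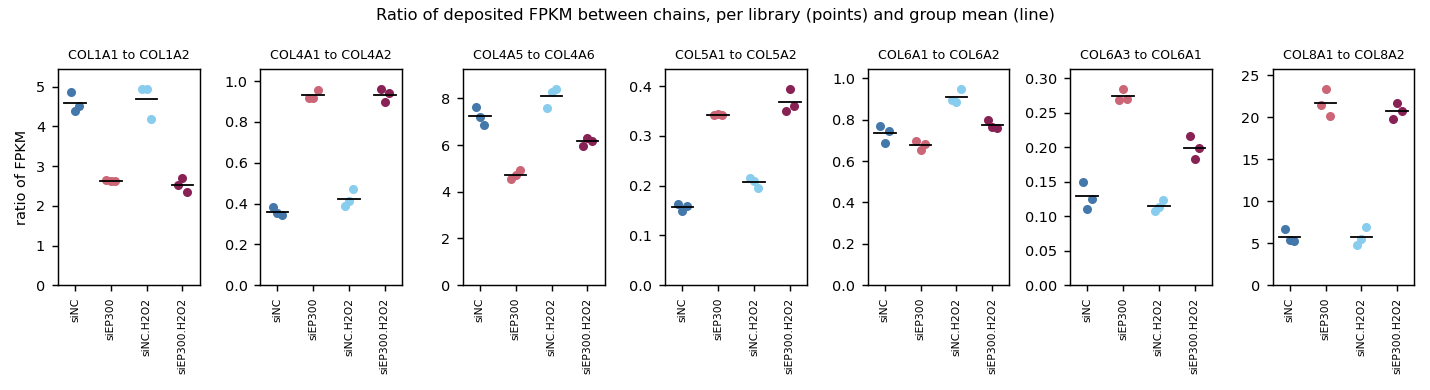
Ratio of deposited FPKM (y axis, starting at 0) for 7 pairs of collagen chains in each library, with points for libraries and a line for each group mean. In the panels of COL1A1 to COL1A2, COL4A1 to COL4A2, COL5A1 to COL5A2 and COL8A1 to COL8A2 the siEP300 and siEP300.H2O2 points stand apart from both control groups.

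Summed FPKM of all 41 collagen genes was a small share of the total, in percent 0.380, 0.318 and 0.347 in siNC, 0.372, 0.357 and 0.385 with EP300 siRNA (siEP300), 0.272, 0.296 and 0.351 with H2O2 (siNC.H2O2) and 0.267, 0.248 and 0.260 with both (siEP300.H2O2). The siEP300.H2O2 libraries were the lowest, below every library of siNC.H2O2 and of siEP300 (exact permutation p = 0.1 for each, the smallest possible), while siEP300 and siNC overlapped (p = 0.3), as did siNC.H2O2 and siNC (p = 0.3). Within that sum, fibrillar collagens made up 67.5% ± 0.429 in siNC and 66.8% ± 0.618 in siEP300 (SD, n = 3), and 58.1% ± 0.316 and 60.1% ± 0.669 in the corresponding H2O2 groups. Type VI went from 14.9% ± 0.993 in siNC to 23.2% ± 0.824 in siNC.H2O2, the largest share of this class in any group, and from 11.1% ± 0.265 to 15.5% ± 0.747 under EP300 siRNA. Type IV went from 6.52% ± 0.178 in siNC to 11.6% ± 0.366 with EP300 siRNA, and under H2O2 from 8.58% ± 0.468 to 13.5% ± 0.0841. Short chain network collagens were more than 2-fold higher in share with EP300 siRNA, 4.0% ± 0.0983 against 1.59% ± 0.0472. Shares add to a fixed total, so a rise in one class lowers the others. As a percent of all FPKM, the type VI mean went from 0.0517 in siNC to 0.0708 in siNC.H2O2. Under EP300 siRNA it was at 0.0413 without H2O2 and 0.0400 with it, and these groups overlapped. On that scale type IV was at 0.0227 in siNC and 0.0429 in siEP300, and at 0.0264 and 0.0348 in the corresponding H2O2 groups.

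**Figure D5:**
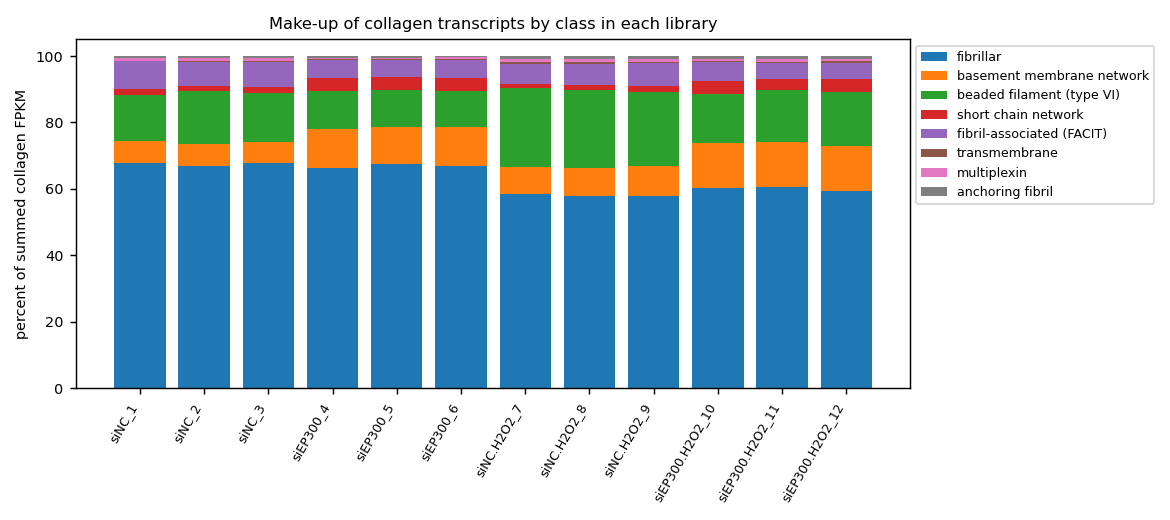
Percent of summed collagen FPKM (y axis) held by each collagen class in each of the 12 libraries (bars). The green type VI segment is largest in the 3 siNC.H2O2 libraries and the orange type IV segment largest in the 3 siEP300.H2O2 libraries. As a percent of all FPKM, type IV was highest in siEP300.

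Genes that make and process collagen were followed from lists of 43 genes in 4 steps, 40 of them tested. Of 14 hydroxylases and glycosyltransferases, which modify the chain, 5 rose and 3 fell with EP300 siRNA without H2O2, and 2 and 6 did so with it. Of 14 folding, export and messenger control genes 7 rose and 1 fell, then 6 and 3. Of 7 propeptide cleavage genes 2 rose and 4 fell, then 1 and 4, and of 5 cross-linking enzymes 2 rose and 2 fell, then 1 and 3. Over all tested genes 30.1% rose and 31.4% fell without H2O2, and 28.4% and 30.6% with it. The 5 of 14 hydroxylases and 2 of 7 cleavage genes that rose without H2O2 are thus near the background. Several of the smaller counts changed on leaving out 1 library. The hydroxylase count of rises without H2O2 was 3 without siNC replicate 2 or 3 or siEP300 replicate 5, and 2 on FPKM. With H2O2, its count of rises was 0 without siNC.H2O2 replicate 8 and 1 without siNC.H2O2 replicate 9 or any siEP300.H2O2 library, and its count of falls was 3 without siEP300.H2O2 replicate 10 or 11. The folding count of rises with H2O2 was 3, and the cross-linking count 0, without siEP300.H2O2 replicate 12. The single folding gene that fell without H2O2 was lost on leaving out any 1 of 7 libraries and under DESeq2.

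LOX, which cross-links collagen and elastin, was at 148, 128 and 121 CPM in siNC, 242, 235 and 239 with EP300 siRNA (siEP300), 239.9, 289.5 and 329 with H2O2 (siNC.H2O2) and 244, 243 and 269 with both (siEP300.H2O2). It was lowest in siNC, rose 1.80-fold with EP300 siRNA without H2O2 (log2 fold change 0.85 ± 0.10, adjusted p = 2.6e-06) and 2.16-fold with H2O2 under control siRNA (log2 fold change 1.11 ± 0.10, adjusted p = 5.8e-07), and its interaction was called (log2 interaction -1.03 ± 0.14, adjusted p = 0.00091). LOXL1, a related enzyme, was at 75.9, 77.3 and 78.3 CPM in siNC, 44.3, 39.8 and 42.0 with EP300 siRNA (siEP300), 49.6, 49.3 and 54.0 with H2O2 (siNC.H2O2) and 21.6, 22.9 and 22.7 with both (siEP300.H2O2). It fell with EP300 siRNA to 54.5% and 43.9% (log2 fold change -0.88 ± 0.06, adjusted p = 1.2e-08, and log2 fold change -1.19 ± 0.06, adjusted p = 1e-09). PCOLCE, which speeds removal of the procollagen end, fell to 61.1% (log2 fold change -0.71 ± 0.07, adjusted p = 3.1e-07), and ADAMTS2, which removes the other end, to 59.6% (log2 fold change -0.75 ± 0.08, adjusted p = 1e-06). FKBP7, a folding enzyme of the endoplasmic reticulum, rose 2.34-fold (log2 fold change 1.23 ± 0.11, adjusted p = 2.1e-07). TMEM38B, an ion channel of the endoplasmic reticulum, rose 1.79-fold with EP300 siRNA under H2O2 (log2 fold change 0.84 ± 0.10, adjusted p = 4.1e-06).

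Receptors for collagen also moved in both directions. Of 12 tested, 5 rose and 6 fell with EP300 siRNA without H2O2, and 3 rose and 6 fell with it. Over all tested genes 30.1% rose and 31.4% fell without H2O2, and 28.4% and 30.6% with it, so the 3 rises are near the background. ITGA1 was at 33.4, 30.5 and 30.7 CPM in siNC, 83.2, 79.1 and 89.1 with EP300 siRNA (siEP300), 18.3, 21.6 and 26.8 with H2O2 (siNC.H2O2) and 50, 44.5 and 44.3 with both (siEP300.H2O2), and ITGA11 at 73.0, 56.5 and 66.2 CPM in siNC, 35.9, 36.4 and 36.9 with EP300 siRNA (siEP300), 112, 125 and 145 with H2O2 (siNC.H2O2) and 42.9, 38.7 and 44.5 with both (siEP300.H2O2). Both are alpha chains of collagen-binding integrins. ITGA1 rose 2.66-fold and 2.08-fold with EP300 siRNA (log2 fold change 1.41 ± 0.10, adjusted p = 2.3e-08, and log2 fold change 1.06 ± 0.11, adjusted p = 7.9e-07), whereas ITGA11 fell to 55.8% and 33.0% (log2 fold change -0.84 ± 0.10, adjusted p = 4.5e-06, and log2 fold change -1.60 ± 0.10, adjusted p = 4.9e-09). Of the receptor kinases that bind fibrils, DDR2 rose 1.79-fold (log2 fold change 0.84 ± 0.08, adjusted p = 2.3e-07) and DDR1 fell to 58.5% (log2 fold change -0.77 ± 0.05, adjusted p = 1.7e-08) without H2O2. ITGB1, the shared beta chain, rose 1.60-fold (log2 fold change 0.68 ± 0.08, adjusted p = 2.5e-06). CD44 was at 248, 242 and 247 CPM in siNC, 220.2, 222 and 216 with EP300 siRNA (siEP300), 779, 811 and 779 with H2O2 (siNC.H2O2) and 398, 403 and 436 with both (siEP300.H2O2). It rose with H2O2 under control siRNA, 3.21-fold (log2 fold change 1.68 ± 0.05, adjusted p = 1.5e-11), and its interaction was called lower (log2 interaction -0.77 ± 0.07, adjusted p = 9.4e-05).

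Markers of cell types were read beside these results. Of 12 cardiomyocyte markers analysed, 10 had group means under 1 CPM in every group, among them TNNT2, MYH6, MYH7, MYL2 and RYR2, so these defining markers of heart muscle were at or near 0. The other 2 were NPPB, a natriuretic peptide, at group means of 36.5 to 52.8 CPM, and TTN, the sarcomere protein titin, at 3.99 to 7.16, and they held nearly all of the summed level of 43.3 to 67.5 CPM. Fibroblast markers other than collagens summed to 4620 to 4791 CPM in siNC and 5999 to 6253 with EP300 siRNA, and in the H2O2 groups to 6338 to 6761 with control siRNA and 5946 to 6348 with EP300 siRNA. VIM, at group means of 2233 to 3742 CPM, and FN1 held most of each sum, and the markers did not move as one. FN1, the matrix protein fibronectin, had means of 1561, 2715, 1976 and 2303 CPM in those groups, whereas DCN, the fibril-binding decorin, had 92.1, 25.9, 31.8 and 14.6. Endothelial PECAM1, CDH5 and VWF were under 1 CPM in every group, and all 7 endothelial markers summed to 34.7 to 44.9 CPM in the control siRNA groups and 16 to 21.7 in the EP300 siRNA groups. EGFL7 carried most of that difference, with means of 27.3 CPM in siNC and 6.41 in siEP300, while TEK went the other way, from 4.02 to 9.29. Cartilage markers summed to 43.0 to 63.9 CPM with control siRNA and 31.6 to 35.3 with EP300 siRNA, with ACAN, MATN1 and COMP under 1 CPM and MATN3 holding most of the sum. Over all libraries, epithelial markers summed to 1.94 to 4.03 CPM and leukocyte markers to 34.4 to 80.8. Most of the leukocyte sum was CD68, at group means of 31.3 to 72.0 CPM, while PTPRC was under 1 CPM in every group. Smooth muscle markers summed to 400.1 to 426.9 CPM in siNC and more in the other groups, up to 872.8 in siEP300.H2O2, most of it TAGLN, while CNN1 went from 45.0 CPM in siNC to 16 in siEP300. The part of these shifts in the collagen results was not tested.

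Collagen transcripts are long, with a median of 5543 bases over the 30 tested genes with a length estimate against 2838 over all tested genes with one. As a description across genes, which are not independent, the deviation of a library from its group mean went with gene length across genes, with Spearman rho from -0.603 (siNC replicate 2) to 0.653 (siNC replicate 1). The length trend removed in the alternative fit was another one, that of each library's deviation from the mean of all 12 libraries. Its removal also takes out differences between groups that go with gene length. With it removed, the collagen genes called with EP300 siRNA without H2O2 were 11 higher and 14 lower, with H2O2 under control siRNA 8 and 13, and in the interaction 0 and 10.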

How the data were processed

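Members, gene lists and classes were chosen with earlier results of these data known. RNA sequencing of 12 AC16 libraries was analysed. The authors deposited estimated counts and FPKM per gene symbol. HISAT, Bowtie2 and the build GRCh38.p13 are named, without versions or roles, per the submitters' processing notes. For the counting program, annotation and strand setting the sources used here give nothing. Estimated counts (12.0% to 13.8% of genes not whole) were rounded. Samples were grouped by their titles. No pair of libraries within a group was a duplicate (chi-square per degree of freedom 1.78 to 18.1).

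The whole table was fitted with edgeR 4.0.16 in R 4.3.3 (glmQLFit, glmQLFTest, TMM factors, filterByExpr), all 12 libraries, 1 mean per group, two-sided, with Benjamini-Hochberg adjusted p under 0.05 called. The fit was tested on simulated counts. A collagen gene is given in full if it passed the filter, had a group mean of at least 5 CPM and was called in at least 1 two-group comparison, which 24 were. Biosynthesis and receptor genes named are the 6 of each with the smallest adjusted p in either EP300 siRNA comparison. Alternatives were DESeq2 1.42.0, RLE or upper-quartile scaling, no filter or a mean of 1 CPM, limma 3.58.1 on log2(FPKM + 1) or + 0.1, removal of a length trend, only the 2 compared groups, an adjusted p under 0.01, and leaving out each library. The same alternatives were run on the biosynthesis and receptor results after the data were seen.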

Additional observations from a re-analysis of the deposited data

Results flagged for a closer look

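The EP300 siRNA effect differed between the settings with and without H2O2 for 8 collagen genes, by the interaction term of edgeR's quasi-likelihood fit. The interaction on the log2 scale was -0.96 for COL13A1 (adjusted p = 0.0035), -0.87 for COL6A3 (adjusted p = 0.0057), -0.79 for COL4A1 (adjusted p = 0.0087) and -0.60 for COL4A6 (adjusted p = 0.033). It was -0.56 for COL6A1 (adjusted p = 0.0015), -0.54 for COL4A2 (adjusted p = 0.0039), -0.44 for COL6A2 (adjusted p = 0.012) and -0.40 for COL1A1 (adjusted p = 0.0093). In each case the level in siEP300.H2O2 relative to siNC.H2O2 was lower than that in siEP300 relative to siNC. The COL4A6 interaction was lost on FPKM and on leaving out any 1 of several libraries, as given above. Groups of 3 libraries are too small for the test of a single outlying sample, which was not made.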

How the results depend on the processing

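No paired analysis was possible because the groups share no replicate numbers. No collagen gene given in full changed direction in a called value under any alternative run. Counts of collagen genes called ranged, on leaving out each library in turn, from 10 to 13 higher and 11 to 13 lower for EP300 siRNA without H2O2, 5 to 7 and 12 to 15 with H2O2, 8 to 9 and 7 to 16 for H2O2 with control siRNA, 3 to 4 and 15 to 18 with EP300 siRNA, and 0 to 1 and 7 to 11 for the interaction. The count most open to choice was that of collagen genes lower with H2O2 under control siRNA, 11 as reported and 7 with only the 2 compared groups in the fit or at an adjusted p under 0.01. As a percent of all counts in place of FPKM, a measure not divided by length, the collagen share was 1.21 in siNC and 1.24 in siEP300, and 1.05 and 0.876 in the corresponding H2O2 groups. Depth limits the 8 untested genes and those under 2 CPM, for which standard errors reached 0.73 on the log2 scale.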
